A study of Mus musculus with 18 samples.

Results

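The change in gene expression between day 21 and day 40 after birth was followed in mouse testis labelled wild type. The comparison takes the 3 arrays titled wild type at day 40 against the 3 titled wild type at day 21, which are 6 of the 18 arrays of the series, and covers all 17075 genes that could be tested. The arrays were chosen by title alone, with no use of measured values. The remaining arrays hold testis labelled wild type at day 60 and testis labelled Plin1 knockout (plin1-null) at days 21, 40 and 60, 3 arrays each. No treatment is named for any group, and the labels of the 6 arrays differ in age only. The labels call day 21 the meiosis phase, day 40 the puberty phase and day 60 the mature phase. Strain and knockout allele, including which exons it removes, are not stated in the sources used here. Independent experiments at each age are stated in the series design, but the labels do not say whether 1 animal went onto each array, and p-values measure only how far these arrays spread.

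Spermatogenesis starts after birth as a synchronous first wave: spermatogonia divide, enter meiosis as spermatocytes, and leave it as round spermatids, which then build an acrosome and a tail and replace their histones with transition proteins and protamines. The juvenile testis therefore gains germ cell types in a fixed order. Sertoli cells, which nurse the germ cells, stop dividing in the same period, and adult Leydig cells, which make testosterone, take over from the fetal population. In whole tissue, fewer cells of a type and less RNA per cell cannot be told apart.

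Total RNA was labelled with Cy3 and hybridised to one-colour Agilent mouse arrays. Between 83.4% and 88.7% of the spots on an array were well above background, and none was saturated. Values are log2 signals with the array's own 75th percentile subtracted, so that 0 is as bright as that percentile, and values for 3 arrays are given in the order of replicates 1, 2 and 3. Across probes, arrays of day 40 correlated at 0.993 to 0.994 with each other and arrays of day 21 at 0.973 to 0.992. Day 21 replicate 3 stood apart on the first principal component, at -162.2 against -74.7 and -77.2 for the other day 21 arrays and 93.0 to 115.0 for day 40. The mean log2 signal of 17 sperm chromatin packaging genes was 1.84, 1.72 and 0.02 on the day 21 arrays, and that of 5 red blood cell genes was -0.54, -1.07 and 0.66. The third day 21 array was thus the lowest in spermatid genes and the highest in blood genes, and where leaving it out ends a call or moves a value by over 1.5 times, the value without it is given. Slides cannot be separated from age, because the 3 day 21 arrays shared 1 slide and the day 40 arrays lay on 2 others.

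The testis identity of the RNA was visible in its germ cell genes. Ldhc, the lactate dehydrogenase of spermatocytes and spermatids, read 7.47, 7.43 and 7.27 at day 21 and 7.52, 7.30 and 7.52 at day 40. Its groups overlapped, with a difference of 0.05 (SE 0.09, limma adjusted p = 0.615). Plin1 itself, the lipid droplet coat protein whose loss defines the other label, was lower in the arrays labelled wild type than in those labelled knockout, with day 21 means of -1.76 against -0.04 and day 40 means of -2.42 against -0.09. That order goes against a loss of the probed transcript under the knockout label, so the groups are called by their labels throughout.

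Most genes that moved far moved upward, and most genes that moved at all moved slightly downward. Of the 17075 genes, 3127 rose (18.3%) and 7582 fell (44.4%) at an adjusted p below 0.05 in limma. Over the 35642 probes tested, 16.1% rose and 42.6% fell. Among the rises 2023 were 2-fold or more, 1218 were 4-fold or more and 316 were 16-fold or more. Among the falls the corresponding counts were 954, 77 and 2. The groups of 3 arrays did not overlap for 11935 genes (69.9%). Of all genes tested, 35 were well above background on all day 40 arrays and on none of day 21, and 96 showed the reverse.

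The share of falls depends on the scale on which arrays are aligned. The median gene lay 0.33 lower at day 40 relative to the 75th percentile, and falls smaller than this are no lower than the typical gene. When arrays were aligned on the control probes for Agilent's spike-in RNAs, the median gene lay 0.02 lower, 2993 genes rose and 699 fell. Risen probes then made up 79.3% of those called, against 27.4%. The spike-in fit included knockout-labelled day 21 replicate 2, an array outside the comparison that stood apart on that scale. Its spread enters every spike-in p-value, so calls ended by spike-in alignment cannot be put down to scale alone. With background corrected by a normexp model on the median signals, 2007 genes rose and 2730 fell, and risen probes made up 45.8%. Of the 2023 rises of 2-fold or more, 2022 were also called with spike-in alignment and 1626 with normexp. Of the 954 falls of 2-fold or more, 637 were also called with spike-in alignment and 169 with normexp, under which 611 kept their direction. The rises of 2-fold or more therefore kept their calls more often than the falls did, and each group of genes is set against the median gene below.

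**Figure D1:**
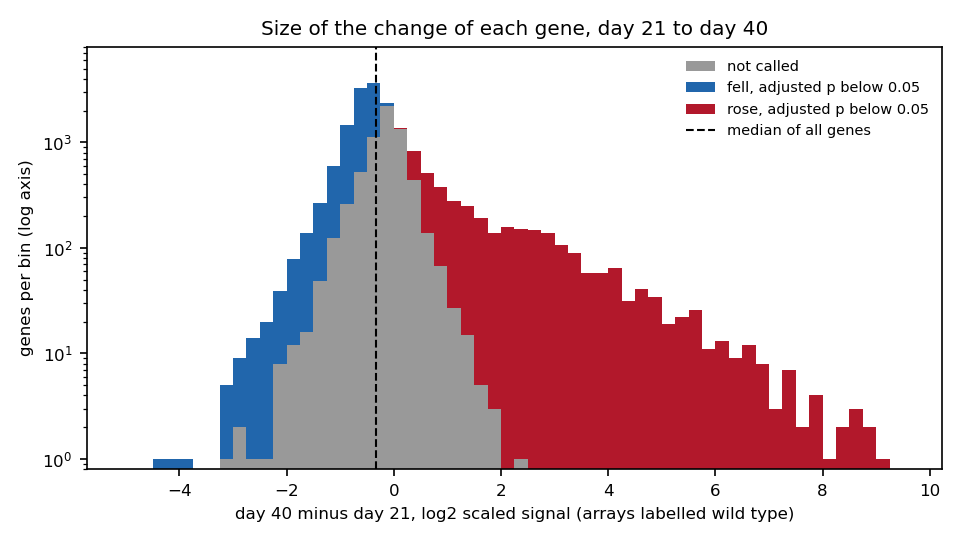
Histogram of the day 40 minus day 21 difference (log2, horizontal axis) over the 17075 genes tested, with the number of genes on a logarithmic vertical axis and the median gene, at -0.33, as a dashed line. The long arm lies on the side of genes higher at day 40, where 316 genes rose 16-fold or more, against 2 that fell as far.

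Genes of the cells that start spermatogenesis moved little and mostly with the median gene. Of 17 spermatogonia markers, 10 fell (58.8%, against 44.4% of all genes) and 1 rose. The median difference was -0.36 against -0.33 for all genes, and 10 lay below the median gene. Sohlh2, a transcription factor of differentiating spermatogonia, read 0.21, 0.47 and 0.72 at day 21 and -0.66, -0.32 and -0.41 at day 40, a fall of 0.93 (SE 0.16, adjusted p = 0.000228). Its groups did not overlap, but spike-in alignment ended the call (-0.63, adjusted p = 0.116). Nanos2, an RNA-binding protein that keeps germline stem cells undifferentiated, and Cdh1, the E-cadherin of undifferentiated spermatogonia, differed by -1.08 and -1.01 and were dim. Spike-in alignment ended both calls (adjusted p = 0.162 and 0.0933), and so did normexp, under which Nanos2 changed sign to 0.56. Lhx1, a stem cell transcription factor, was the member that rose, by 1.08 (SE 0.21, adjusted p = 0.000715; normexp adjusted p = 0.117). With spike-in alignment 1 spermatogonia marker rose and 0 fell.

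Genes of meiotic entry and recombination were split. Of 31 genes of early meiosis, 20 fell (64.5%, against 44.4% of all genes) and 5 rose. The median was -0.40, and 22 lay below the median gene. Stra8, the retinoic acid target that opens meiosis, read 2.79, 2.63 and 3.07 at day 21 and 2.14, 2.64 and 2.58 at day 40. Its groups overlapped, and the difference of -0.38 did not pass (SE 0.25, adjusted p = 0.215). Meiob, a single-strand DNA binding protein of meiotic recombination, read 3.74, 3.75 and 3.93 and then 2.81, 2.91 and 2.87, a fall of 0.94 (SE 0.12, adjusted p = 2.42e-05) with no overlap. Dmc1, the meiotic strand-exchange enzyme, fell by 0.85, Mlh3, a crossover factor, by 0.62, and Sycp1, the central strand of the synaptonemal complex, by 0.42.

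Some meiotic genes ran the other way. Syce2, a central-element protein of the synaptonemal complex, read 3.76, 3.61 and 3.64 at day 21 and 5.46, 5.20 and 5.30 at day 40, a rise of 1.65 (SE 0.10, adjusted p = 3.24e-08). M1ap, a protein needed for male meiosis, rose by 1.76 (SE 0.16, adjusted p = 9.11e-07) with no overlap between ages. Rec8, the meiotic cohesin, read 3.77, 3.36 and 1.97 and then 4.47, 4.07 and 4.23, a rise of 1.22 (SE 0.32, adjusted p = 0.00541) that was ended when only the arrays compared were fitted (adjusted p = 0.0588). The day 21 values of Rec8 are spread by the low replicate 3, without which the rise was 0.69 (adjusted p = 0.00585). With spike-in alignment 3 early meiosis genes rose and 1 fell.

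Genes of pachytene spermatocytes and the meiotic divisions mostly did not pass the test. Of 25 such genes, 14 did not pass, 6 rose and 5 fell, with a median of -0.08 (-0.13 without day 21 replicate 3), and 5 lay below the median gene. Hspa2, the heat shock protein of spermatocytes, differed by -0.13, Piwil1, a Piwi protein of pachytene cells, by -0.17, and H1f6, the testis linker histone, by 0.02, none of which passed. Pgk2, the testis phosphoglycerate kinase, read 5.72, 5.27 and 4.50 at day 21 and 6.46, 6.19 and 6.49 at day 40, a rise of 1.21 (SE 0.22, adjusted p = 0.000343). Calr3, the calreticulin of the testis, read -0.30, -0.46 and -1.99 and then 4.21, 3.80 and 4.20, a rise of 4.99 (SE 0.39, adjusted p = 2.67e-07). Neither gene's groups overlapped, and the third day 21 array was the lowest for both. Cdc25c, the phosphatase that opens the divisions, rose by 1.49 (SE 0.18, adjusted p = 1.91e-05), and Crisp2, a secretory protein of germ cells, by 0.83.

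The piRNA pathway, which silences transposons in germ cells, had 7 falls (43.8%, against 44.4% of all genes) and 1 rise among 16 genes. Its median of -0.23 lay above that of all genes. With quantile normalization it lay below (-0.35 against -0.34), as it did with normexp (-0.27 against -0.05). Mov10l1, the helicase that starts piRNA processing, read 2.10, 1.99 and 2.31 at day 21 and 1.32, 1.40 and 1.28 at day 40, a fall of 0.80 (SE 0.09, adjusted p = 1.33e-05) with no overlap. Gtsf1, a Piwi partner, rose by 0.71 (SE 0.15, adjusted p = 0.00123). Tex19.1 and Tdrd5, both germ cell factors linked to transposon control, fell by 0.69 and 0.68. Spike-in alignment ended the calls of Mov10l1, Tex19.1 and Tdrd5 (adjusted p = 0.153, 0.268 and 0.323).

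Regulators of the spermatid programme were uneven. Of 24, 8 rose (33.3%, against 18.3% of all genes), 4 fell (16.7%, against 44.4%) and 12 did not pass. Their median was 0.08. The median lay on the other side of 0 without day 21 replicate 3 (-0.017, 8 rises and 5 falls) and with quantile normalization (-0.094, 8 rises and 7 falls). Crem, the transcription factor that drives spermatid genes, read 3.41, 3.29 and 2.66 at day 21 and 4.16, 3.85 and 3.93 at day 40, a rise of 0.86 (SE 0.15, adjusted p = 0.00038). Its coactivator Fhl5 (ACT) read 0.04, -0.21 and -3.09 and then 3.52, 3.20 and 3.65, a rise of 4.55 (SE 0.57, adjusted p = 2.40e-05). Neither overlapped between ages. The Crem values are those of its brightest probe. A second Crem probe rose by 0.87, others fell by 0.27 and 0.31 (adjusted p = 0.0212 and 0.00475), and the rest were not called. Spz1, a bHLH-zip factor of the testis, rose by 4.16 and Klhl10, a ubiquitin ligase adaptor of spermatids, by 3.06 (2.03 without day 21 replicate 3), both with the third day 21 array as the lowest. Tssk6, a kinase needed for histone removal, read -1.48, -1.52 and -1.99 and then 3.72, 3.18 and 3.65, a rise of 5.18 (SE 0.23, adjusted p = 2.01e-09) in which the day 21 arrays lay close together. Dazl, a translational regulator of earlier germ cells, fell by 1.01.

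Genes that repackage sperm DNA had the highest median of the lists described here. Of 17 chromatin packaging genes, 12 rose (70.6%, against 18.3% of all genes) and 2 fell, with a median of 4.43. Tnp2, a transition protein that displaces histones, read -1.27, -0.66 and -3.15 at day 21 and 5.80, 5.30 and 5.65 at day 40, a rise of 7.28 (SE 0.53, adjusted p = 1.31e-07). Tnp1, the other transition protein, read 1.95, 2.15 and -0.85 and then 7.53, 6.95 and 7.42, a rise of 6.22 (SE 0.60, adjusted p = 2.32e-06). For both genes every day 40 array lay far above every day 21 array, and the third day 21 array was the lowest.

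The protamines followed. Prm2 read 1.77, 3.64 and -0.23 at day 21 and 7.70, 7.51 and 7.79 at day 40, a rise of 5.94 (SE 0.68, adjusted p = 9.96e-06). Prm1 read 2.54, 3.93 and 0.19 and then 7.84, 7.61 and 7.84, a rise of 5.55 (SE 0.65, adjusted p = 1.35e-05). The second day 21 array was the highest and the third the lowest for both protamines. The spermatid linker histone H1f7 rose by 5.22, and the variants H2al2a, H2bl1 and H2ap, members of families of near-identical genes whose probes may share signal, rose by 4.43, 4.72 and 5.20. The earlier testis histone H2ac1 differed by 0.10 and the bromodomain protein Brdt by -0.15, which did not pass. The falls were Rnf8, a ubiquitin ligase, by 0.58, and Kdm3a, a histone demethylase, by 0.37. Without day 21 replicate 3 the list's median was 3.34, with 11 rises and 2 falls.

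**Figure D2:**
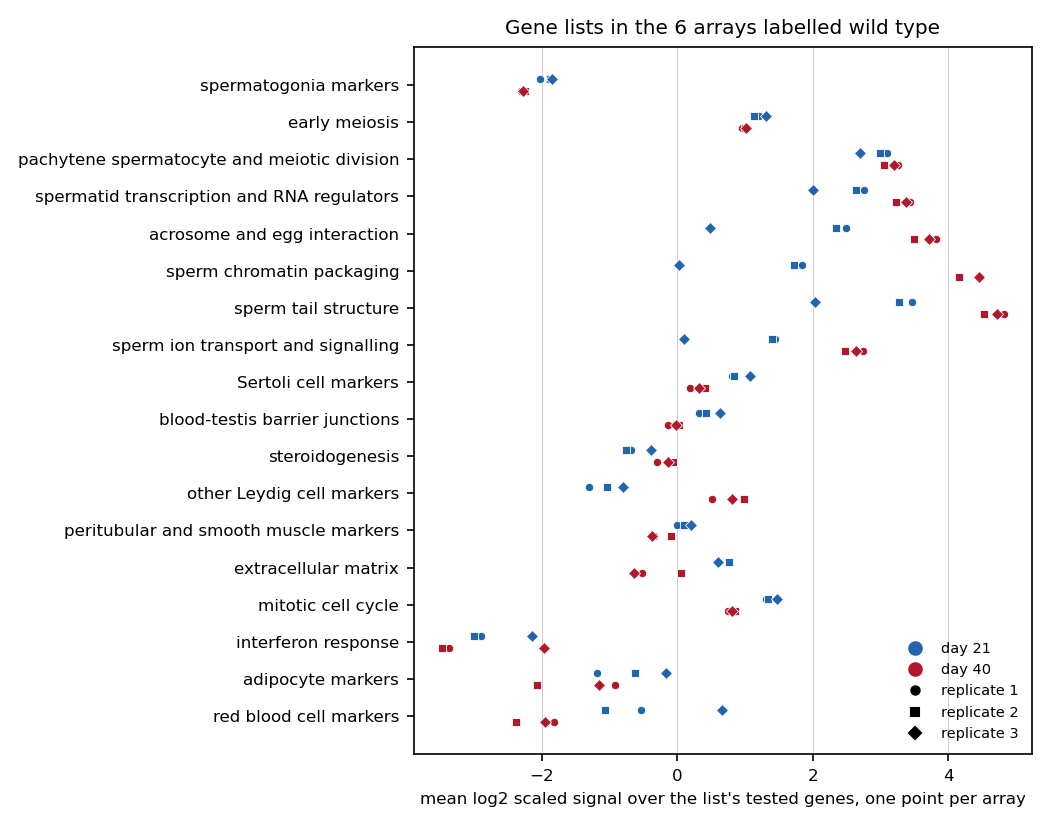
Mean scaled log2 signal for 18 gene lists on each of the 6 arrays, with circles, squares and diamonds for replicates 1, 2 and 3, day 21 in blue and day 40 in red. The chromatin packaging list lies between 0.02 and 1.84 at day 21 and between 4.16 and 4.46 at day 40, while the Sertoli list runs from 0.80 to 1.08 and then from 0.19 to 0.41.

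The acrosome is the enzyme-filled cap by which sperm meet the egg. Of 28 genes of the acrosome and of egg interaction, 21 rose and 0 fell at adjusted p below 0.05 in limma, with a median of 2.45. Without day 21 replicate 3, 21 rose and 1 fell, with a median of 1.53. With spike-in alignment 21 rose and 0 fell, and with normexp 18 and 0. Izumo1, the sperm protein that binds its egg receptor, read -0.65, -1.05 and -4.09 at day 21 and 1.80, 1.34 and 1.72 at day 40, a rise of 3.55 (SE 0.61, adjusted p = 0.000275). Acrv1, an acrosomal matrix protein, read 2.68, 2.10 and -0.72 and then 4.21, 3.93 and 4.16, a rise of 2.75 (SE 0.58, adjusted p = 0.0012). The groups of both genes stayed apart, with the third day 21 array the lowest, and without it Acrv1 rose by 1.72.

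Other acrosomal members rose by similar amounts. Izumo2, a relative of Izumo1, rose by 3.91, from 2 arrays at day 40, since its spot on replicate 1 was marked as an outlier. Spaca6, a fusion factor, rose by 3.66 and Eqtn, an acrosomal membrane protein, by 3.41. The members that did not pass included Spink2, a protease inhibitor, at -0.03, and Dpy19l2, which anchors the acrosome, at -0.11. Acr, the protease acrosin, rose by 0.56, or by 0.34 without day 21 replicate 3.

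Promoters of these genes were read from RefSeq (build GRCm38.p6) as the 250 bases before and 50 after each start, 300 in all. They were available for 13572 of the tested genes. The motif TGACATCA, a relative of the cyclic AMP response element TGACGTCA to which factors of the CREM family bind, was searched on both strands. It was present in 2.95% of the tested genes' promoters, in 6.27% of those of genes that rose, in 1.82% of those of genes that fell, and in 32 of 260 (12.3%) of those of genes that rose 16-fold or more. Among acrosome genes it was present in 7 of 25 (28.0%), and among tail genes in 5 of 26 (19.2%). It was in 1 of 17 promoters of chromatin packaging genes, in 0 of 18 of the ion transport genes and in 0 of 21 of the spermatid regulators, so the spermatid lists differed in it. The element TGACGTCA itself was present in 2.98% of the tested genes' promoters, in 3.72% of those of genes that rose, in 3.08% of those of genes that rose 16-fold or more, and in 1 of 25 acrosome and 1 of 26 tail promoters. Other motifs searched also differed between these groups. GTTGCC was present in 14.6% of the tested genes' promoters, in 11 of 26 (42.3%) tail promoters and in 5 of 25 (20.0%) acrosome promoters. GGGCGG was present in 58.2% of the tested genes' promoters and in 36.2% of those of genes that rose 16-fold or more. All 7 acrosome promoters with TGACATCA carried it in the orientation TGATGTCA relative to the gene. Over all 32851 promoter windows 613 held only TGACATCA, 523 only TGATGTCA and 53 both. A match is a string of letters and not a measured binding site. The following stretches, shown because their genes rose and carry the motif, end before the start site and read 5′ to 3′ along the gene. Capitals mark each match in either orientation, and the Gapdhs stretch holds 1 of each.
Hyal5 (chr6:24857876-24857955, plus strand): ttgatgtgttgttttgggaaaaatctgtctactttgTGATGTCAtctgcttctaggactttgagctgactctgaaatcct
Actl7a (chr4:56743346-56743421, plus strand): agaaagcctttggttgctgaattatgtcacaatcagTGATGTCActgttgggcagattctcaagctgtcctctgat
Lyzl6 (chr11:103638891-103638962, minus strand): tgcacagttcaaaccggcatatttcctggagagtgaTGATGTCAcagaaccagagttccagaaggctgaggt
Gapdhs (chr7:30743732-30743811, minus strand): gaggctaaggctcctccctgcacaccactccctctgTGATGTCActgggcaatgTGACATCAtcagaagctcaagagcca
Akap4 (chrX:7067444-7067514, plus strand): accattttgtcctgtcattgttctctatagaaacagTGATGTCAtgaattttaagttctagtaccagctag

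Of the genes printed, Actl7a, an actin-related protein of the acrosome, read 2.77, 2.45 and -0.20 at day 21 and 5.04, 4.76 and 5.05 at day 40. Hyal5, a sperm hyaluronidase, read 0.12, -0.43 and -3.15 and then 2.26, 2.0 and 2.19. Lyzl6, a lysozyme-like protein of sperm, read 2.28, 1.64 and -1.27 and then 3.88, 3.55 and 3.72. Their rises were 3.27, 3.30 and 2.83, with no overlap between ages, and that of Lyzl6 was 1.75 without day 21 replicate 3. The motif sat 33, 78 and 29 bases before the start site in the same order. The 12 acrosome and tail genes with the motif all rose, the others being the acrosome genes Actl9, Spam1, Spaca7 and Sun5 and the tail genes Akap3, Akap4, Gapdhs, Septin4 and Smcp. With or without the motif, 21 of 28 acrosome genes and 23 of 31 tail genes rose. Of all 400 tested genes with the motif, 157 rose. Whether the motif bears on the rise was not tested.

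The sperm tail followed the acrosome. Of 31 tail genes, 23 rose (74.2%, against 18.3% of all genes) and 2 fell, with a median of 0.83. Without day 21 replicate 3, 20 rose and 3 fell, with a median of 0.59. Odf1, a protein of the outer dense fibres, read -1.16, -1.57 and -4.51 at day 21 and 2.40, 1.93 and 2.21 at day 40, a rise of 4.60 (SE 0.58, adjusted p = 2.46e-05). Akap4, the main protein of the fibrous sheath, read 2.36, 1.61 and -1.18 and then 5.60, 5.10 and 5.34, a rise of 4.42 (SE 0.61, adjusted p = 4.93e-05). Fscn3, a testis fascin, read -2.87, -2.04 and -3.72 and then 4.71, 4.26 and 4.54, a rise of 7.38 (SE 0.37, adjusted p = 4.39e-09). In all 3 the ages stayed apart.

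Spata18, a protein of sperm mitochondria, rose by 4.90 (SE 0.39, adjusted p = 3.41e-07), and Smcp, which coats the mitochondrial sheath, by 3.62. Structural genes of the axoneme moved less: Tekt1 rose by 0.48, Spag16 by 0.40 and Spag17 by 0.37. Without day 21 replicate 3 the difference of Tekt1 was 0.30, and the calls of Spag16 and Spag17 ended (adjusted p = 0.0557 and 0.189). The axonemal genes Dnah8, a dynein heavy chain, and Spag6l, a central apparatus protein, fell by 0.41 and 0.46, and spike-in alignment left 0 falls in the list.

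Ion channels and signalling proteins that serve sperm motility also rose in the main. Of 25, 13 rose (52.0%, against 18.3% of all genes) and 3 fell, with a median of 1.40. Without day 21 replicate 3, 14 rose and 3 fell, with a median of 1.16. Atp1a4, the sodium pump of sperm, read -1.35, -1.55 and -4.04 at day 21 and 2.55, 2.27 and 2.05 at day 40, a rise of 4.60 (SE 0.51, adjusted p = 7.67e-06), or 3.74 without day 21 replicate 3, its lowest array. Catsper1, Catsper3 and Catsper4, subunits of the sperm calcium channel, rose by 3.30, 3.09 and 2.48, and the rises of Catsper3 and Catsper4 were 2.04 and 1.49 without that array. The testis-specific kinases Tssk3 and Tssk2 rose by 4.10 (adjusted p = 4.84e-05) and 3.49 (adjusted p = 0.000145). Adcy10, the soluble adenylyl cyclase, rose by 1.40 and Plcz1, the sperm phospholipase that activates the egg, by 3.14. The falls, Gsk3a by 0.57, the proton channel Hvcn1 by 0.53 and the exchanger Slc9c1 by 0.34, were not called with spike-in alignment, and Hvcn1 was not called without day 21 replicate 3 (adjusted p = 0.111).

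**Figure D3:**
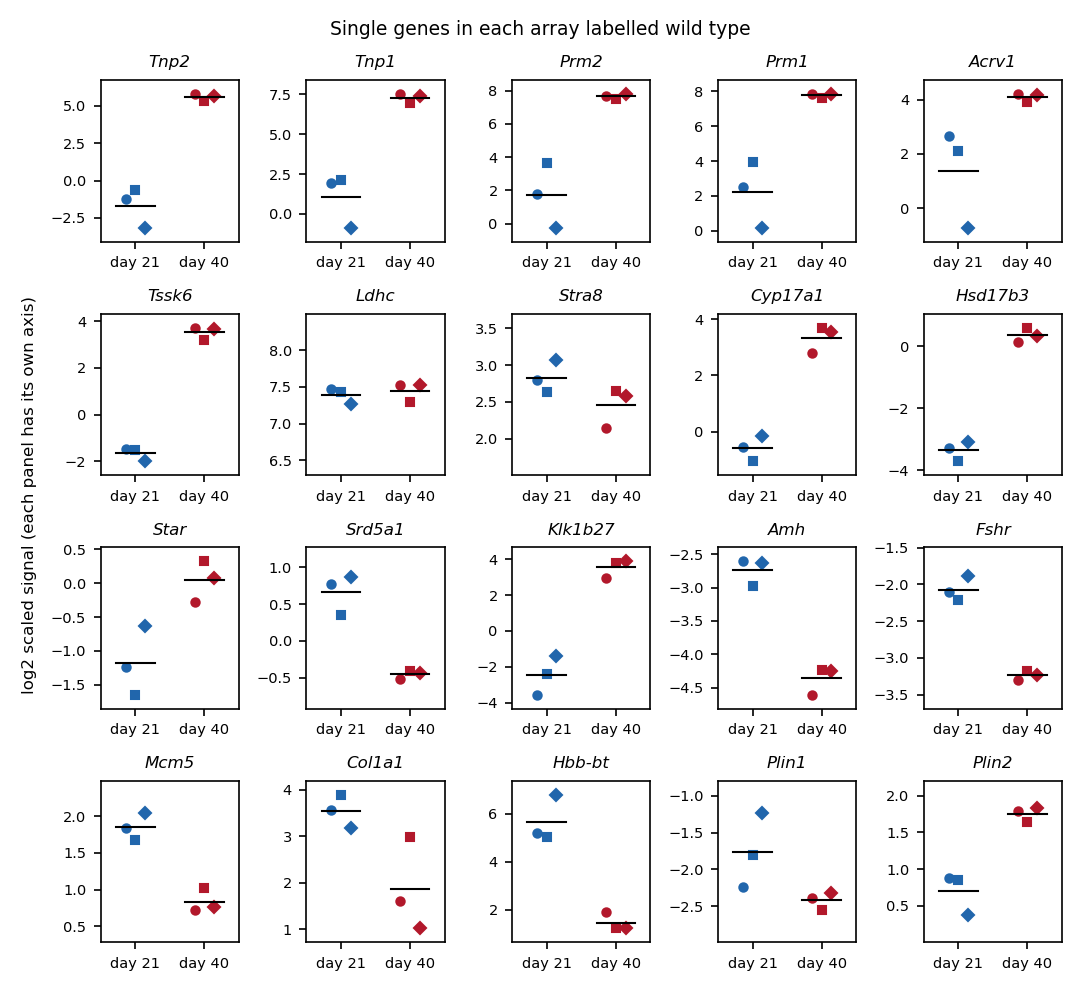
Scaled log2 signal for 20 genes on the 6 arrays, with circles, squares and diamonds for replicates 1, 2 and 3, day 21 in blue, day 40 in red and a bar at each mean. Spermatid genes such as Tnp2 lie between -3.15 and -0.66 at day 21 and between 5.30 and 5.80 at day 40, Ldhc overlaps, and Hbb-bt falls from between 5.05 and 6.80 to between 1.22 and 1.89.

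The 12 largest rises ran from 7.42 to 9.02, above the highest member of the spermatid lists, Fscn3 at 7.38. They were taken from genes called, well above background on all 6 arrays and without overlap between ages. Nudt16l2, a gene of the Nudix hydrolase family, read -5.95, -4.23 and -6.58 at day 21 and 3.67, 3.20 and 3.44 at day 40, a rise of 9.02 (SE 0.42, adjusted p = 2.32e-09). 1700009J07Rik rose by 8.79, Ttc24 by 8.65 and Oxct2a, a succinyl-CoA transferase of testis, by 8.54. Cstl1, a cystatin-like gene, rose by 8.51, 1700016C15Rik by 8.38 and Prkar2a, a regulatory subunit of protein kinase A, by 8.12. Hemgn rose by 7.97, 1700042G07Rik by 7.85, Ubqlnl by 7.81, 1700012A03Rik by 7.72 and 1700008P02Rik by 7.42. The separation of the 12 between ages was set by that choice, and the third day 21 array was the lowest in each.

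Some genes were not well above background on any day 21 array, so their rise is a lower bound, computed against the dimmest signal that was well above background. Cyp2a12, a cytochrome P450, was at least 132-fold higher at day 40, with a day 40 mean of -0.92. Slc7a11, the cystine transporter, was at least 18.3-fold higher, Gpc5, a glypican, at least 18.1-fold, Oog4 at least 13.8-fold and Tafa2 at least 13.5-fold. With normexp the calls of Slc7a11, Oog4 and Tafa2 ended (adjusted p = 0.0725, 0.0717 and 0.25).

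Genes of dividing cells fell together, and their median lay 0.29 below that of all genes. Of 36 mitotic cell cycle genes, 30 fell (83.3%, against 44.4% of all genes) and 0 rose. The median was -0.62, and 28 lay below the median gene. Mcm5, a subunit of the replicative helicase, read 1.84, 1.67 and 2.04 at day 21 and 0.73, 1.03 and 0.76 at day 40, a fall of 1.01 (SE 0.11, adjusted p = 4.60e-06). Mcm6, its partner, read 3.54, 3.50 and 3.80 and then 2.81, 3.03 and 3.06, a fall of 0.65 (SE 0.10). Mki67, the proliferation antigen, read 2.64, 2.45 and 2.86 and then 1.94, 2.19 and 2.13, a fall of 0.57 (SE 0.10, adjusted p = 0.000391). None of these overlapped between ages. With spike-in alignment 1 gene of the list fell and 0 rose at adjusted p below 0.05 in limma. The spike-in differences of Mcm4, Mcm2, Ect2 and Mki67 were -0.60, -0.59, -0.61 and -0.26 (adjusted p = 0.0878, 0.0987, 0.0603 and 0.489). With normexp 19 fell, and all 36 lay below the median gene.

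The E2F-type motif TTTGGCGC, read on both strands, was present in 0.906% of the tested genes' promoters and in 5 of 29 (17.2%) of those of the mitotic cell cycle genes. Mcm5 and Mcm6 are shown because both fell and carry it (in capitals), in opposite orientations.
Mcm5 (chr8:75109324-75109403, plus strand): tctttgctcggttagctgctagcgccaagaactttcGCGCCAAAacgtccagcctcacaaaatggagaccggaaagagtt
Mcm6 (chr1:128359772-128359851, minus strand): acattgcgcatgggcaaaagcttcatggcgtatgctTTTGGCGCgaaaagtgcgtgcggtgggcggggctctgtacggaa
A related motif, TTTCCCGC, was present in 1.92% of tested promoters, in 4 of 29 (13.8%) of the mitotic list and in 4 of 24 (16.7%) of the early meiosis list.

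Sertoli cell genes fell without exception among those that passed. Of 26, 20 fell (76.9%, against 44.4% of all genes) and 0 rose, the median was -0.62, and 17 lay below the median gene. Amh, the hormone of immature Sertoli cells, read -2.61, -2.97 and -2.63 at day 21 and -4.60, -4.23 and -4.24 at day 40, a fall of 1.62 (SE 0.14, adjusted p = 8.58e-07). Fshr, the receptor for follicle-stimulating hormone, read -2.11, -2.21 and -1.89 and then -3.30, -3.18 and -3.23, a fall of 1.17 (SE 0.11, adjusted p = 1.84e-06). Both genes separated the ages on every array and were dim, and normexp ended their calls (adjusted p = 0.791 and 0.483).

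Inha, the inhibin subunit, read 3.35, 3.20 and 3.77 at day 21 and 2.13, 2.62 and 2.50 at day 40, a fall of 1.02 (SE 0.16, adjusted p = 0.00016) that spike-in alignment ended (adjusted p = 0.0676). Sox9 and Gata1, both transcription factors of Sertoli cells, fell by 0.88 and 0.89, Dhh, the hedgehog ligand, by 0.91, and Gdnf and Kitl, which act on spermatogonia, by 0.78 and 0.75. Rhox5, an androgen-responsive homeobox gene, read 2.84, 2.73 and 3.11 and then 2.93, 3.09 and 3.04, and its groups overlapped. Its difference of 0.13 (SE 0.16, adjusted p = 0.513) lay above the median gene. Krt18, a keratin of immature Sertoli cells, differed by -1.12 (adjusted p = 0.0419) and lost its call without day 21 replicate 2 (adjusted p = 0.222) or any one of the day 40 arrays (adjusted p = 0.0608, 0.0548 and 0.143), and with spike-in alignment (adjusted p = 0.262) or normexp (adjusted p = 0.443). With spike-in alignment 2 Sertoli genes fell and 0 rose, with normexp 8 fell, and without day 21 replicate 3 15 fell.

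Junction genes of the blood-testis barrier had 7 falls (63.6%, against 44.4% of all genes) and 0 rises among 11, with a median of -0.55 against -0.33. With spike-in alignment 1 of the 11 fell, and with normexp 2 did. Ocln, a tight junction protein, read -2.05, -2.04 and -1.49 at day 21 and -3.12, -2.89 and -2.88 at day 40, a fall of 1.11 (SE 0.18, adjusted p = 0.000174; normexp adjusted p = 0.518). Cldn11, the claudin of the barrier, read 3.33, 3.34 and 3.88 and then 2.64, 2.95 and 2.87, a fall of 0.70 (SE 0.15, adjusted p = 0.00128). Neither overlapped between ages. F11r and Marveld2, further tight junction proteins, each fell by 0.83. A second, dimmer Marveld2 probe rose by 0.55 (adjusted p = 0.0144). Spike-in alignment ended the calls of Cldn11, F11r and Marveld2 (adjusted p = 0.305, 0.14 and 0.148), and normexp that of Marveld2 (adjusted p = 0.8).

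Steroid synthesis was split by enzyme, so that counts of rises and falls were equal. Of 20 steroidogenesis genes, 7 rose (35.0%, against 18.3% of all genes) and 7 fell (35.0%, against 44.4%). Their median was -0.09. Cyp17a1, the enzyme that makes androgens from progestins, read -0.55, -1.06 and -0.17 at day 21 and 2.79, 3.70 and 3.54 at day 40, a rise of 3.94 (SE 0.32, adjusted p = 3.46e-07). Hsd17b3, which makes testosterone from androstenedione, read -3.28, -3.71 and -3.09 and then 0.12, 0.60 and 0.33, a rise of 3.71 (SE 0.43, adjusted p = 1.07e-05). Cyp11a1, which cuts the cholesterol side chain, read -0.81, -0.78 and -0.05 and then 1.25, 1.93 and 1.77, a rise of 2.20 (SE 0.28, adjusted p = 2.37e-05). Every day 40 array lay above every day 21 array for these 3 enzymes.

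Star, which carries cholesterol into mitochondria, read -1.23, -1.64 and -0.64 at day 21 and -0.27, 0.32 and 0.08 at day 40, a rise of 1.22 (SE 0.30, adjusted p = 0.00366). Hsd3b6, the adult-type 3-beta-hydroxysteroid dehydrogenase, rose by 1.26 (SE 0.23, adjusted p = 0.000488), while Hsd3b1 fell by 0.64 and lost its call without day 21 replicate 3 (adjusted p = 0.0657). The falls included enzymes that reduce androgens, which mark immature Leydig cells. Srd5a1, the steroid 5-alpha-reductase, read 0.78, 0.35 and 0.87 and then -0.52, -0.41 and -0.43, a fall of 1.12 (SE 0.16, adjusted p = 5.42e-05) with no overlap. Akr1c14, a 3-alpha-hydroxysteroid dehydrogenase, read -2.59, -2.39 and -1.94 and then -2.85, -2.69 and -2.97, a fall of 0.53 (SE 0.17, adjusted p = 0.0167). Leaving out day 21 replicate 3 or day 40 replicate 3 ended that call (adjusted p = 0.0898 and 0.0612), as did spike-in alignment (adjusted p = 0.529) and normexp (adjusted p = 0.856). With spike-in alignment 7 steroidogenesis genes rose and 1 fell, and without day 21 replicate 3 7 rose and 3 fell, with a median of -0.018.

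Other Leydig cell markers rose more widely. Of 15, 11 rose (73.3%, against 18.3% of all genes) and 3 fell, with a median of 0.98. Klk1b27, a kallikrein of adult Leydig cells, read -3.56, -2.42 and -1.40 at day 21 and 2.94, 3.81 and 3.89 at day 40, a rise of 6.0 (SE 0.54, adjusted p = 1.04e-06). Klk1b21 and Klk1b24 rose by 4.58 and 4.16, but these kallikreins are near-identical paralogs whose probes may share signal. Bhmt, a methyltransferase, rose by 4.11 (SE 0.39, adjusted p = 2.0e-06), and Sult1e1, the oestrogen sulfotransferase, and Ptgds, a prostaglandin D synthase, by 3.13 and 3.0. The list's mean lay between -1.30 and -0.80 on the day 21 arrays and between 0.52 and 0.98 on those of day 40. The falls were Thbs2 by 1.12, Pdgfra by 1.07 and Nr2f2 by 1.04, which are also expressed in stem and immature Leydig cells.

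Extracellular matrix genes, which build the tissue around the tubules, had the lowest median of the lists described here. Of 23 extracellular matrix genes, 21 fell (91.3%, against 44.4% of all genes) and 1, Col5a1, rose by 0.85. The median was -1.0, and 21 lay below the median gene. Col1a1, a chain of fibrillar collagen I, read 3.57, 3.89 and 3.17 at day 21 and 1.60, 2.98 and 1.02 at day 40, a fall of 1.67 (SE 0.50, adjusted p = 0.0104). Col3a1, the chain of collagen III, read 4.27, 4.47 and 3.96 and then 1.87, 3.20 and 1.59, a fall of 2.01 (SE 0.54, adjusted p = 0.00565). The ages did not overlap, and day 40 replicate 2 was the highest of its group for both. Its mean over the list was 0.06, against -0.53 and -0.64 for the other day 40 arrays and 0.60 to 0.76 at day 21.

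Lum, the proteoglycan lumican, differed by -2.55 (SE 0.81, adjusted p = 0.0153) and lost its call without day 21 replicate 2 (adjusted p = 0.052), without day 40 replicate 3 (adjusted p = 0.0694), with spike-in alignment (adjusted p = 0.0532) and with normexp (adjusted p = 0.222). Col1a1 lost its call without day 40 replicate 3 (adjusted p = 0.0553) and with spike-in alignment (adjusted p = 0.0603). Col1a2 fell by 1.56 (SE 0.39, adjusted p = 0.00368). With spike-in alignment 4 matrix genes fell and 1 rose, and with normexp 12 fell.

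Peritubular and smooth muscle genes had 8 falls (57.1%, against 44.4% of all genes) and 1 rise among 14, with a median of -0.60 against -0.33. With spike-in alignment 0 fell and 1 rose at adjusted p below 0.05 in limma, and with normexp 7 fell and 1 rose. Acta2, smooth muscle actin, read 2.66, 2.85 and 2.69 at day 21 and 2.96, 2.74 and 2.83 at day 40 on its brightest probe, where the groups overlapped and the difference was 0.11 (adjusted p = 0.379). A second Acta2 probe fell by 0.99 (adjusted p = 5.38e-05), so the gene is uncertain. Actg2, enteric smooth muscle actin, was the rise, by 2.01 (SE 0.15, adjusted p = 2.37e-07). Myh11, smooth muscle myosin, Tpm1, a tropomyosin, and Lmod1, a leiomodin, fell by 0.92, 0.85 and 0.84, and spike-in alignment ended these calls (adjusted p = 0.0705, 0.128 and 0.136).

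Endothelial genes had 5 falls (35.7%, against 44.4% of all genes) and 2 rises among 14, with a median of -0.39 close to that of all genes. Robo4, a receptor of vessel endothelium, read 1.01, 0.86 and 1.76 at day 21 and -0.58, -0.14 and -0.31 at day 40, a fall of 1.55 (SE 0.19, adjusted p = 1.48e-05). Vwf, von Willebrand factor, rose by 0.89 (SE 0.12, adjusted p = 3.66e-05). Eng, a TGF-beta coreceptor, fell by 0.76, and spike-in alignment and normexp ended that call (adjusted p = 0.239 and 0.583). Kdr, a VEGF receptor, differed by -0.83 and lost its call without day 21 replicate 3, without day 40 replicate 1 and without day 40 replicate 3 (adjusted p = 0.0665, 0.0851 and 0.083), with spike-in alignment (adjusted p = 0.357) and with normexp (adjusted p = 0.634).

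Some markers of blood, fat cells, macrophages and epididymis passed the test as well, and their part in the results was not tested. The haemoglobins fell most among genes called and well above background on all 6 arrays. Hba-a1 read 4.17, 3.97 and 5.80 at day 21 and 0.64, -0.06 and 0.15 at day 40, a fall of 4.40 (SE 0.53, adjusted p = 1.58e-05). Hbb-bt read 5.19, 5.05 and 6.80 and then 1.89, 1.22 and 1.25, a fall of 4.23 (SE 0.49, adjusted p = 1.08e-05). The third day 21 array was the highest for both, and neither overlapped. These 2 were the only ones called of 5 red blood cell genes, so 40.0% fell, against 44.4% of all genes. These globin genes have near-identical copies. The mean of the list lay between -1.07 and 0.66 at day 21 and between -2.38 and -1.82 at day 40.

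Fat cell markers varied between arrays of one age. Of 17 adipocyte markers 5 fell (29.4%, against 44.4% of all genes) and 2 rose, with a median of -0.92. The list mean lay between -1.19 and -0.16 on the day 21 arrays and between -2.07 and -0.92 on those of day 40. Without day 21 replicate 3, 3 fell and 2 rose. Their defining genes were well above background on every array of both ages: Adipoq, the hormone of fat cells, averaged 0.36 and then 0.73, and Fabp4, their fatty acid carrier, 2.57 and then 0.48, neither of which passed. Slc2a4, the insulin-responsive glucose transporter, differed by -0.92 and Lep, leptin, by -1.84. Spike-in alignment and normexp ended the call of Slc2a4 (adjusted p = 0.187 and 0.289). The call of Lep was lost without day 21 replicate 2, without day 21 replicate 3 and without day 40 replicate 2 (adjusted p = 0.0506, 0.0563 and 0.0714), and it changed sign with normexp to 0.47.

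Macrophage genes had 3 falls (15.0%, against 44.4% of all genes) and 1 rise among 20, with a median of -0.35 against -0.33. Without day 21 replicate 3 they had 1 fall, 1 rise and a median of -0.17. The rise was Aif1, which read 2.82, 2.61 and 0.25 at day 21 and 5.85, 5.40 and 5.64 at day 40, a rise of 3.74 (SE 0.47, adjusted p = 2.42e-05). Its lowest array was the third of day 21, as for the spermatid genes, while Adgre1, Csf1r and Ptprc, which define macrophages and leukocytes, differed by 0.05, -0.28 and -0.06 and did not pass. Cd163, a scavenger receptor, differed by -0.69 and lost its call with spike-in alignment (adjusted p = 0.376) and normexp (adjusted p = 0.928). Fcer1g and Laptm5 differed by -0.51 and -0.39. Fcer1g lost its call without day 21 replicate 3 and without day 40 replicate 1 (adjusted p = 0.128 and 0.117), and Laptm5 without day 21 replicate 2, day 21 replicate 3 or day 40 replicate 1 (adjusted p = 0.0553, 0.11 and 0.131). Spike-in alignment also ended both calls (adjusted p = 0.689 and 0.849), and with normexp Laptm5 changed sign.

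Interferon response genes had 3 falls (17.6%, against 44.4% of all genes) and 0 rises among 17, with a median of -0.27. The median was 0.03 with spike-in alignment, 0.21 with normexp, 0.23 with array weights, and 0.03 and 0.0049 without day 40 replicates 1 and 2, and it was -0.013 without day 21 replicate 3. Ifit1, the gene chosen to stand for them, read -5.44, -5.94 and -4.45 at day 21 and -5.25, -5.40 and -3.48 at day 40, with overlap and no call (0.57, adjusted p = 0.302). With array weights Ifit1 was called as a rise (1.41, adjusted p = 0.014), and without day 40 replicate 3 its difference was -0.05. The third array of each age was the highest in the list, at -2.15 and -1.96, against -3.48 to -2.89 for the others. Rsad2 differed by -1.69 and lost its call without day 21 replicate 3, day 40 replicate 1 or day 40 replicate 2 (adjusted p = 0.0912, 0.0617 and 0.0786), with spike-in alignment (adjusted p = 0.0621) and with normexp (adjusted p = 0.887). Stat2, a signal transducer, fell by 0.79 and was not called with spike-in alignment (adjusted p = 0.161).

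Epididymis markers, which would mark tissue from the adjoining duct, were dim, and 3 of 6 fell and 1 rose. The rise was Crisp1, which read -6.62, -6.95 and -7.75 at day 21 and -6.47, -2.31 and -4.84 at day 40, a rise of 2.57 (SE 0.80, adjusted p = 0.0138). Day 40 replicate 2 was the highest array, and the call ended without it (adjusted p = 0.0652) and without day 21 replicate 3 (adjusted p = 0.0565). The falls were Cst11 by 1.89, Lcn10 by 0.84 and Rnase10 by 0.67, all of which were not called with normexp (adjusted p = 0.667, 0.965 and 0.851). Lcn10 and Rnase10 also lost their calls with spike-in alignment (adjusted p = 0.144 and 0.444). Lcn10 lost it without day 40 replicate 3 (adjusted p = 0.0704), and Rnase10 without day 21 replicate 1, day 40 replicate 1 or day 40 replicate 2 (adjusted p = 0.119, 0.101 and 0.0843).

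Immediate-early and stress genes, which respond to handling of tissue, had 9 falls (52.9%, against 44.4% of all genes) and 2 rises among 17. Their median was -0.52 (-0.31 without day 21 replicate 3). Egr1, a zinc finger factor induced within minutes of a stimulus, read -0.15, -0.64 and 0.02 at day 21 and -1.46, -1.41 and -1.79 at day 40, a fall of 1.30 (SE 0.17, adjusted p = 3.98e-05). Its groups did not overlap. Dusp1, a phosphatase that ends MAP kinase signals, rose by 1.25 (SE 0.17, adjusted p = 5.48e-05). Fos and Atf3 differed by -1.07 and -1.38, and normexp ended both calls (adjusted p = 0.991 and 0.985), as spike-in alignment did for Fos (adjusted p = 0.0928).

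Imprinted genes of the growth-control network had 12 falls (60.0%, against 44.4% of all genes) and 3 rises (15.0%, against 18.3%) among 20, with a median of -0.51. With spike-in alignment 3 fell and 3 rose, and with normexp 6 fell and 1 rose. Igf2, the fetal growth factor, read -0.19, -0.08 and 0.25 at day 21 and -1.26, -0.82 and -1.17 at day 40, a fall of 1.08 (SE 0.15, adjusted p = 4.93e-05) with no overlap. Cdkn1c, a cyclin-dependent kinase inhibitor, read -0.25, -0.11 and 0.01 and then 2.23, 1.90 and 2.09, a rise of 2.19 (SE 0.13, adjusted p = 2.81e-08). The 2 genes thus moved apart, Cdkn1c up and Igf2 down. Nnat and Peg3 differed by -1.87 and -1.23, and normexp ended both calls (adjusted p = 0.457 and 0.413).

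Retinoic acid, made from vitamin A, starts meiosis in each cycle of the tubule. Of 16 genes of its pathway 7 fell (43.8%, against 44.4% of all genes) and 1 rose, and the median was -0.32, beside -0.33 for all genes. Rdh10, the retinol dehydrogenase, read -1.79, -2.27 and -2.28 at day 21 and 0.71, 0.41 and 0.75 at day 40 on its brightest probe, a rise of 2.74 (SE 0.21, adjusted p = 2.19e-07). A second Rdh10 probe fell by 0.46. Rbp4, which carries retinol, and Cyp26b1, which degrades retinoic acid, differed by -0.98 and -0.92, and spike-in alignment ended both calls (adjusted p = 0.0765 and 0.111).

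Cholesterol synthesis feeds both steroid synthesis and germ cell membranes. Among its 23 genes 8 rose (34.8%, against 18.3% of all genes) and 6 fell (26.1%, against 44.4%). Their median was 0.05 (0.14 without day 21 replicate 3). Cyp51, the lanosterol demethylase, read -1.78, -1.62 and -2.10 at day 21 and 1.60, 1.44 and 1.54 at day 40, a rise of 3.36 (SE 0.19, adjusted p = 1.47e-08). Insig1, which holds the sterol sensor in place, read -4.36, -4.17 and -4.03 and then -0.39, -0.68 and -0.40, a rise of 3.69 (SE 0.23, adjusted p = 2.90e-08). Pmvk, the phosphomevalonate kinase, rose by 1.15 (SE 0.11, adjusted p = 2.06e-06). The ages did not overlap in these genes. Probes of the same gene differed: a second Insig1 probe differed by -0.38 and a second Pmvk probe by 0.05, and neither passed. For Cyp51 a dimmer probe rose by 2.95, and another differed by -0.35 and did not pass (adjusted p = 0.161).

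The coat proteins and lipases of lipid droplets were also split. Of 21, 6 rose (28.6%, against 18.3% of all genes) and 8 fell (38.1%, against 44.4%), with a median of -0.35 against -0.33. Without day 21 replicate 3, 6 rose and 5 fell. Plin2, the coat protein found in most tissues, read 0.88, 0.85 and 0.38 at day 21 and 1.79, 1.64 and 1.83 at day 40, a rise of 1.05 (SE 0.15, adjusted p = 6.20e-05) with no overlap. Plin1 read -2.24, -1.80 and -1.24 and then -2.40, -2.55 and -2.32, a fall of 0.66 (SE 0.24, adjusted p = 0.0289). The ages of Plin1 did not overlap, but its call ended without day 21 replicate 2 (adjusted p = 0.0517), day 21 replicate 3 (0.155), day 40 replicate 1 (0.0601) or day 40 replicate 2 (0.0838). It ended also with spike-in alignment (adjusted p = 0.441), median centring (adjusted p = 0.062), normexp (adjusted p = 0.289) and a fit to only the arrays compared (adjusted p = 0.0638).

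Enzymes that build and empty droplets rose further. Dgat2, which makes triglyceride, read 3.62, 2.88 and 0.93 at day 21 and 5.56, 5.28 and 5.59 at day 40, a rise of 3.0 (SE 0.47, adjusted p = 0.000137). A dimmer Dgat2 probe rose by 3.08, and another differed by 0.17 and did not pass (adjusted p = 0.232). Lipe, the hormone-sensitive lipase, read -1.08, -1.06 and -0.82 and then 1.45, 1.14 and 1.35, a rise of 2.30 (SE 0.14, adjusted p = 2.71e-08). Abhd5, the activator of the first lipase, rose by 2.03 (SE 0.13, adjusted p = 4.30e-08) on its brightest probe. A second Abhd5 probe fell by 0.31 (adjusted p = 0.0012). Neither Dgat2 nor Lipe overlapped between ages. Agpat2, an acyltransferase of the same route that is also an adipocyte marker, rose by 4.47 (SE 0.22, adjusted p = 3.26e-09). Pnpla3 differed by -1.81 and lost its call without day 21 replicate 3 (adjusted p = 0.0936) or day 40 replicate 2 (adjusted p = 0.0664), with spike-in alignment (adjusted p = 0.0572) and with normexp (adjusted p = 0.851).

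Many housekeeping genes have a copy that is used mainly in germ cells, and 26 such pairs were set side by side. Of the 26 widely expressed members, 15 fell, 3 rose and 8 did not pass, with a median of -0.46. Of the 26 testis members, 9 rose, 4 fell and 13 did not pass, with a median of 0.05. Over all genes 44.4% fell and 18.3% rose. Without day 21 replicate 3 the rises of Pgam2 and Cox6b2 were not called (adjusted p = 0.16 and 0.0954). Nor were the falls of Canx and Utp14a (adjusted p = 0.0565 and 0.079), while Clgn was called as a fall (adjusted p = 0.0207). Among the widely expressed rises, a further Gk probe fell by 1.36 and a further Ppp3r1 probe differed by -0.43, which did not pass. Gapdh, of glycolysis, read 3.14, 3.11 and 3.16 at day 21 and 3.16, 3.13 and 3.14 at day 40, a difference of 0.01 (SE 0.07, adjusted p = 0.92). Gapdhs, its sperm form, read 2.51, 2.14 and -0.71 and then 6.08, 5.69 and 5.95, a rise of 4.59 (SE 0.57, adjusted p = 2.14e-05), or 3.58 without day 21 replicate 3. Gapdh overlapped between ages and Gapdhs did not. The testis copies active from meiosis on, Ldhc, Pgk2 and Ppp3r2, differed by 0.05, 1.21 and 0.06. Pdha2, the autosomal copy of the X-linked Pdha1, rose by 0.27 while Pdha1 fell by 0.85.

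**Figure D4:**
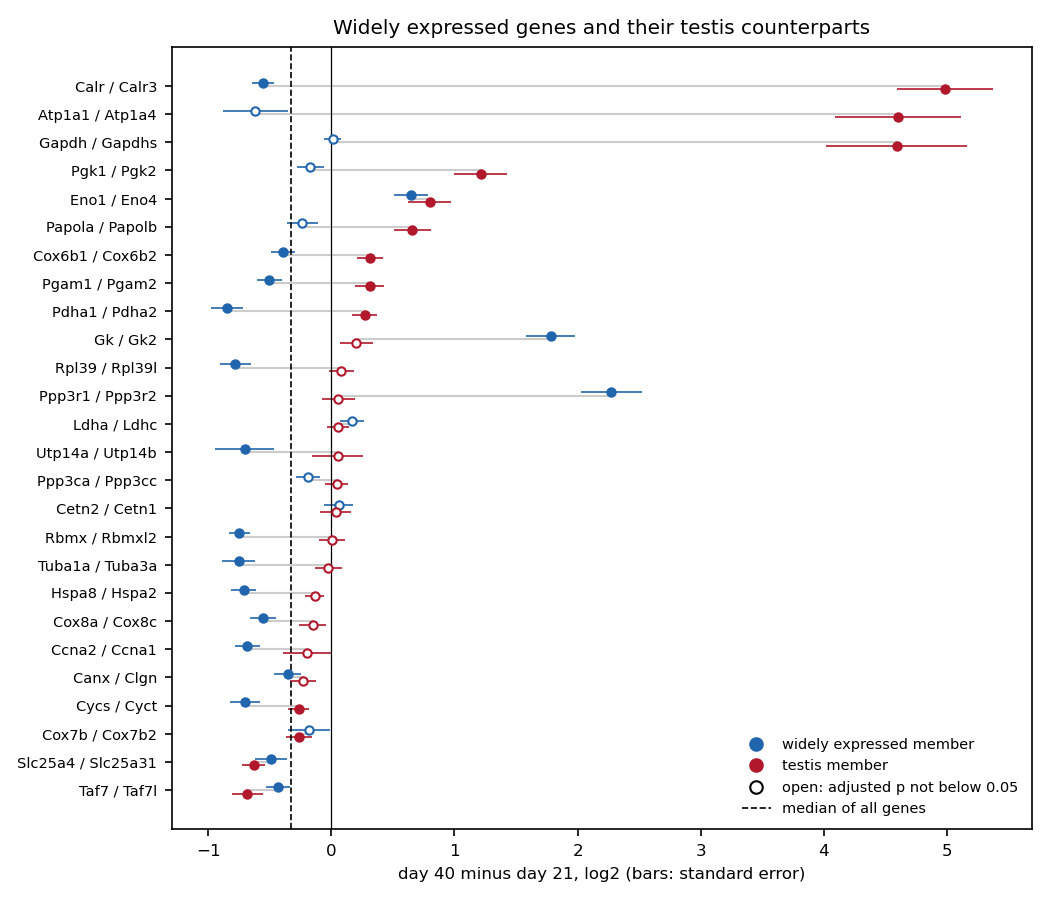
Day 40 minus day 21 difference (log2, with SE bars) for the widely expressed and the testis member of 26 gene pairs, with open symbols for genes that did not pass and a dashed line at the median of all genes, -0.33. Most widely expressed members lie left of 0, and Calr3, Atp1a4 and Gapdhs stand near 4.99, 4.60 and 4.59.

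On chromosome X, which is silenced in meiosis, 327 of 609 genes fell (53.7%, against 44.1% of autosomal genes) and 96 rose. The median was -0.51 against -0.32 for autosomal genes. Of the X genes 367 lay below the median gene, and of 16451 autosomal genes 8166 did. With spike-in alignment 93 X genes rose and 54 fell, and with normexp the medians were -0.05 and -0.05. Cytosolic ribosomal protein genes, which every cell uses, had 46 falls (59.0%, against 44.4% of all genes) and 0 rises among 78 by limma. Their median of -0.26 lay above that of all genes. With spike-in alignment it was 0.05 and 1 fell, and with quantile normalization and normexp it lay below that of all genes.

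Probes of one gene could run in opposite directions. Of 6116 genes with more than 1 tested probe, 659 had at least 1 probe that rose and 1 that fell, and 32 of them by 2-fold or more each way. The following were chosen after their values were seen, from genes whose probes carry the same accession. One Ppm1l probe read -6.76, -6.92 and -6.54 at day 21 and -1.03, -1.49 and -1.21 at day 40, a rise of 5.49, while another read -0.52, -0.51 and -0.15 and then -2.34, -1.96 and -2.05, a fall of 1.72. Ppm1l encodes a protein phosphatase. For Jag1, a Notch ligand, the rise was 5.47 and the fall 0.59. For Lasp1, an actin-binding protein, 2 probes rose by 4.82 and 4.41 and 1 fell by 0.48. The genes above are described by their brightest probe, so a gene's direction applies to that probe.

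Large falls beside the haemoglobins included genes of secreted proteins. Stc1, the hormone stanniocalcin, read -3.66, -4.19 and -3.50 at day 21 and -6.59, -7.13 and -7.24 at day 40, a fall of 3.20 (SE 0.30, adjusted p = 1.72e-06). Ahsg, fetuin, read 0.72, 0.56 and 1.15 and then -2.90, -2.12 and -2.06, a fall of 3.17 (SE 0.23, adjusted p = 1.22e-07). Spp1, osteopontin, fell by 2.90, Rab7b by 2.82 and Wif1, a Wnt inhibitor, by 2.59. Like the largest rises, these were taken from genes without overlap between ages, so their separation was set by that choice. Also among the 12 largest were 4930486L24Rik, at -3.0, and Olfr319, an olfactory receptor, at -2.61. Normexp ended the calls of Stc1, Olfr319 and Wif1 (adjusted p = 0.848, 0.848 and 0.857). Among genes not well above background on any day 40 array, Gjb6, a connexin, was at least 4.94-fold lower, Olfr1463 at least 3.99-fold, Nlrp9a at least 3.88-fold, Krtap1-5 at least 3.73-fold and Olfr632 at least 3.53-fold, and all 5 changed sign with normexp. Olfr632 also lost its call without day 21 replicate 2, day 21 replicate 3 or day 40 replicate 3 (adjusted p = 0.0691, 0.05001 and 0.0983).

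The difference between day 60 and day 40 shares the day 40 arrays with the comparison that chose the genes, so only sizes are given. Its median absolute size was 0.17 for the 3127 risen and 0.12 for the 7582 fallen genes, beside 1.47 and 0.59 from day 21 to day 40.

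The arrays labelled knockout share the ages, and their own change is given beside that of the wild-type-labelled arrays. In them 2503 genes rose and 5767 fell, and the median over all genes was -0.23, against -0.33. The 2306 genes that rose under both labels were 73.7% of those that rose under the wild-type label and 92.1% of those under the knockout label. The 4878 that fell under both were 64.3% and 84.6% in the same order. The difference between the changes was itself tested, and 44 genes passed (0.258%). The change under the wild-type label minus that under the knockout label was above 0 in 40 of them, of which 38 rose under both labels, and below 0 in 4. In all 40 the day 21 mean was lower in the wild-type-labelled arrays, and in 39 the day 40 means lay within 1. Nudt16l2 averaged -5.59 at day 21 and 3.44 at day 40 under the wild-type label, and -1.91 and 3.52 under the knockout label, a difference between the changes of 3.59 (SE 0.59, adjusted p = 0.0336). Without wild-type-labelled day 21 replicate 3, 33 of the 44 were still called. Label was partly mixed with slide. Knockout-labelled day 21 replicate 1 shared the slide of the wild-type-labelled day 21 arrays, and replicates 2 and 3 lay on another. Wild-type-labelled day 40 replicate 3 shared the slide of the knockout-labelled day 40 arrays, and replicates 1 and 2 lay on another. The number of probes that passed, 79, moved with the arrays fitted. It was 49 and 455 without wild-type-labelled day 21 replicates 1 and 2, 4, 24 and 6 without wild-type-labelled day 40 replicates 1, 2 and 3, 324, 201 and 41 without the knockout-labelled day 21 arrays in turn, and 4, 47 and 4 without those of day 40. With normexp and with a fit to only the arrays compared, 0 genes were called by limma, and the numbers at an unadjusted p below 0.05 were 1346 and 1978, against 2686.

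**Figure D5:**
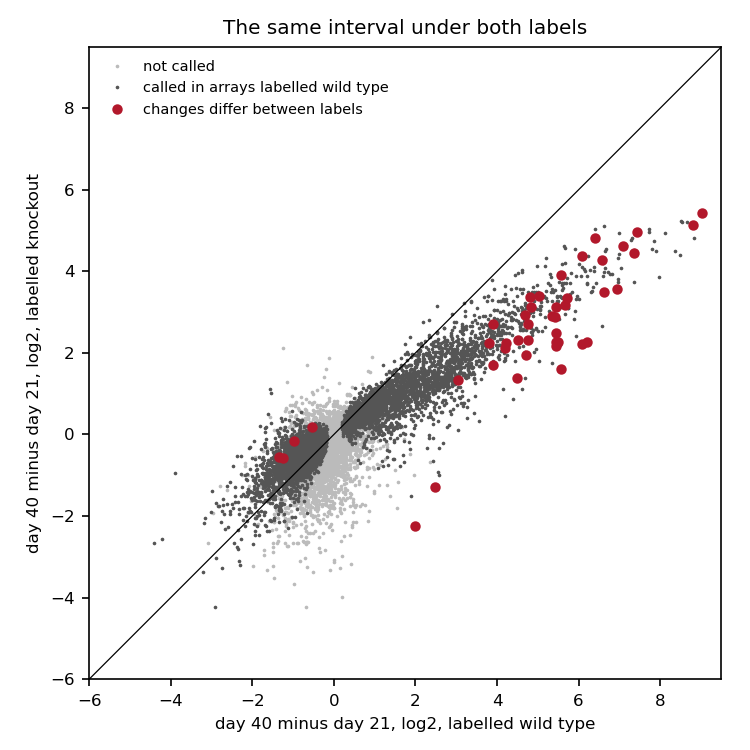
Day 40 minus day 21 difference (log2) of each gene in the wild-type-labelled arrays (horizontal) and in the knockout-labelled arrays (vertical), with the 44 genes whose changes differed between labels in red. Most red points lie below the diagonal at high horizontal values, among them Nudt16l2 at 9.02 and 5.43.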

How the data were processed

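RNA of mouse testis was measured on 18 one-colour Agilent arrays, 3 for each age and label, and 6 of them are compared here. Per the file headers, the authors' processed signal is a linear intensity from Feature Extraction 10.7.3.1, with background subtracted and no scaling between arrays, whereas the submitters' processing notes name version 9.1. A comparison with the deposited series table found identical intensities. From this deposited signal, log2 values were taken and each array's 75th percentile over non-control spots was subtracted. Control spots and spots marked as outliers were left out, and spots of a probe were averaged.

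Of 41174 probes, 35642 were tested, those well above background on every array of some group, with limma 3.58.1 in R 4.3.3 (lmFit and eBayes on the 6 group means over 18 arrays), with Benjamini-Hochberg adjustment over all 35642 and a threshold of 0.05. SE is that of the fitted difference. RefSeq accessions gave a symbol to 25058 tested probes, and 14286 of all probes had none. A gene is its tested probe of highest mean signal. Lower bounds set the brighter mean against the lowest signal well above background on each array of the dimmer group.

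The members and gene lists were chosen with earlier results of these data known. Of 611 listed genes 553 were tested. Named were the 12 largest rises and falls, up to 4 called genes with the largest difference per list, key genes, the 5 largest lower bounds each way and the gene pairs. Some genes that this rule names are not reported here. Members of lists beyond these were named as examples after their values were seen. The promoter motifs, 9 in all, were searched after the calls were known.

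Alternatives were quantile normalization, median centring, a percentile over probes above background on all arrays, spike-in control probes, normexp (offset 50) on median signals, other filters, slide as a random block, array weights, a fit to only the arrays compared, a replicate block and leaving out each array. Spike-in alignment and normexp on median signals were added after the data were seen, since the files hold no mean signal, and the labels do not mention spike-in RNA. On simulated data for 35642 probes of the day 40 against day 21 comparison, 61% of 2-fold and 88% of 4-fold changes were recovered with 7 false calls. Far fewer probes were changed there than were called in the data. The noise was independent between arrays, with no array set apart and no slide effect, so these figures describe that setting only. The number of arrays limits the precision. Replicate numbers did not pair the arrays.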

Additional observations from a re-analysis of the deposited data

Results flagged for a closer look

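For 5 of the genes named above, the change from day 21 to day 40 differed between the labels by limma's test of that difference. The change in wild-type-labelled arrays exceeded that in knockout-labelled arrays by 2.45 for 1700008P02Rik (adjusted p = 0.0209), by 2.76 for Tafa2 (adjusted p = 0.0299) and by 3.65 for 1700009J07Rik (adjusted p = 0.0318). It exceeded it by 3.22 for Slc7a11 (adjusted p = 0.0318) and by 3.59 for Nudt16l2 (adjusted p = 0.0336). Tafa2 and Slc7a11 were not well above background on any wild-type-labelled day 21 array, so their differences have no defined size. With normexp and with a fit to only the arrays compared, 0 genes passed this test in limma, and 1346 and 1978 did at an unadjusted p below 0.05. In each of the 5 the day 21 mean was lower under the wild-type label, and the day 40 means of the labels lay within 1 of each other. Label was partly mixed with slide, as described above.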

How the results depend on the processing

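Of 147 named genes, spike-in alignment ended the call of 38 and changed the direction of 0, and normexp ended 30 and reversed 10. The spike-in fit included knockout-labelled day 21 replicate 2, which stood apart on that scale. Its mean spike-in signal relative to the 75th percentile was -0.004, against -1.40 to -0.67 on the other arrays. The variance of a probe is pooled over all arrays of the series, so the spread of this array enters every spike-in p-value. How many calls ended through that spread, and how many through the change of scale, was not tested. Spike-in alignment left 1473 fallen probes (699 genes), and normexp left 3384 risen and 4012 fallen probes (2007 and 2730 genes). Leaving out 1 array gave 5002 to 5782 risen and 12493 to 14904 fallen probes, 2761 to 3168 risen and 6414 to 7460 fallen genes, and 4 to 455 probes whose change differed between labels. That number, 79, became 34 with quantile normalization, 0 with normexp and with only the arrays compared, 47 without a filter, 24 with probes above background on all 6 arrays, 2124 with slide as a random block, 676 with array weights, and 41 without replicate 3 of both wild-type-labelled groups.

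With the replicate number as a block, 5672 probes (3100 genes) rose and 14892 (7448) fell, and 43 probes differed between labels. Same-numbered arrays did not deviate together, with correlations of 0.19, -0.22 and -0.03. Slide correlated at -0.226 and could not be fitted as a fixed block, since no slide holds both ages.

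Reversed were Ldhc with quantile normalization (-0.16, adjusted p = 0.0398), and with spike-in alignment the medians of the pachytene (0.23), piRNA (0.074), steroidogenesis (0.21), interferon (0.032) and ribosomal protein (0.048) lists. With normexp Gjb6 (0.28), Olfr1463 (0.24), Nlrp9a (0.45), Krtap1-5 (0.44), Olfr632 (0.42), Nanos2 (0.56), Laptm5 (0.11), Lcn10 (0.11), Rnase10 (0.58) and Lep (0.47) reversed, as did the medians of the spermatogonia (0.033), endothelial (0.018), epididymis (0.74), immediate-early (0.018) and interferon (0.21) lists. The median of the spermatid regulators was below 0 with quantile normalization (-0.094) and without day 21 replicate 3 (-0.017), that of steroidogenesis was 0.0043 with array weights and 0.011 without replicate 3 of both groups, and that of pachytene genes was 0.00038 with median centring. The cholesterol median was -0.03 without wild-type-labelled day 21 replicate 1 and -0.10 without day 40 replicate 2. The causes were not tested. Dim probes limit the precision of the falls.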
